A study of Mus musculus with 8 samples.

Results

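Malat1, Neat1, Gas5, Snhg1, Snhg3, Snhg5, Snhg6, Snhg8 and Snhg12 are long RNAs that are transcribed by RNA polymerase II and encode no known protein. They were taken by name from the table of normalized read counts, where all 9 were found among 52224 genes. The set holds 2 long nuclear RNAs, Malat1 and Neat1, and 7 RNAs whose introns carry small nucleolar RNAs (snoRNAs). The samples were hematopoietic stem cells from the bone marrow of mice, sorted as CD48-negative, CD150-positive cells of the LSK fraction (no lineage markers, Sca-1 and Kit present). There were 4 libraries from DekTg mice and 4 from DekCon mice. Both names are genotypes, in a study of the chromatin protein DEK in stem cell function and Fanconi anemia. The promoter of the transgene, the age and sex of the mice and the number of mice per library were not given in the labels used here. No treatment other than the genotype is named for either group.

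Malat1 is held in nuclear speckles, bodies that store splicing factors. Its end is not made by polyadenylation: RNase P cuts the RNA upstream of a tRNA-like small RNA and leaves an A-rich tract that folds into a triple helix. Neat1 is the scaffold of paraspeckles and has a short polyadenylated form and a long form that ends like Malat1. In the snoRNA hosts the introns are the stable product, since they are trimmed into snoRNAs that guide ribose methylation or pseudouridylation of ribosomal RNA, whereas for several hosts the spliced exons are degraded during translation by nonsense-mediated decay. Several of these hosts start, as ribosomal protein mRNAs do, with a terminal oligopyrimidine (TOP) run, which ties translation to growth signals.

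The ends of Malat1 and Neat1 are shown because they set how these RNAs can be captured, and the capitals mark the A-rich tract in Malat1-201 and Neat1-201 and the poly(A) signal in Neat1-202. All 3 are from GENCODE M21 transcripts on GRCm38, minus strand of chromosome 19. The Malat1-201 stretch lies at chr19:5795922-5796089 and ends with the tRNA-like sequence after the tract. The Neat1-201 stretch is the end of the long form at chr19:5824708-5824815. The Neat1-202 stretch is the end of the short form at chr19:5842307-5842414.
Malat1-201: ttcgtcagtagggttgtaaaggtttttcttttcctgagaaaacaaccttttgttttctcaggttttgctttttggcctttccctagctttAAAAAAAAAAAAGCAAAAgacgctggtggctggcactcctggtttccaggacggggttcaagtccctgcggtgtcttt
Neat1-201: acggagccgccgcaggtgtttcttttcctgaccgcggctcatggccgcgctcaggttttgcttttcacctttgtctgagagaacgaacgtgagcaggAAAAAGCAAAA
Neat1-202: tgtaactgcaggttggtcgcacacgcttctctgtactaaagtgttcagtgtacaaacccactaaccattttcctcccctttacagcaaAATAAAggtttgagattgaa

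For the hosts, the DNA around the start is shown so that the C and T run near it, where a TOP run would lie, can be compared between them. Each stretch has 40 bases before and 50 bases from the annotated RefSeq start (GRCm38.p6), on the gene's strand. Capitals mark the longest uninterrupted run of C and T within 15 bases of the start, searched on that strand only. Of 7 hosts, 6 had an entry. Gas5 had 2 starts in the table, of which the second is shown, a choice made after both had been read; the first has a run of 3 bases, as at least 88.7% of promoters do.
Gas5, chr1:161035126-161035215, plus strand: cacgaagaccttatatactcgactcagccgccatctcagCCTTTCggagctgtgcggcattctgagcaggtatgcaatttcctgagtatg
Snhg1, chr19:8723447-8723536, plus strand: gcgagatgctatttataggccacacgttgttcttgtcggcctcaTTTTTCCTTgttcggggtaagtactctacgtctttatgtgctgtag
Snhg3, chr4:132353637-132353726, minus strand: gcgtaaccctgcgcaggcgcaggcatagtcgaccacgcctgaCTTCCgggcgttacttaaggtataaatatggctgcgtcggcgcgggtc
Snhg5, chr9:88522848-88522937, minus strand: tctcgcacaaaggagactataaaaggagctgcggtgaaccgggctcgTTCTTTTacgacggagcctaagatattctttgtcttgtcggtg
Snhg8, chr3:123508287-123508376, minus strand: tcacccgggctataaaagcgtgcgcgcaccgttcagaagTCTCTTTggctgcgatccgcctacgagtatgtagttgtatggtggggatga
Snhg12, chr4:132308638-132308727, plus strand: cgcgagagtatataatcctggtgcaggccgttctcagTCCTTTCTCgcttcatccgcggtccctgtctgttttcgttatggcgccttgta
The runs of Snhg1 and Snhg12 were the longest at 9 bases, a length reached by 7.56% of 27025 promoters in the table (the first start of each gene). Snhg5 and Snhg8 had 7 bases, as at least 18.5% of promoters did, and the second Gas5 start had 6, as at least 29.1% did. The 5-base run of Snhg3 was matched or exceeded in 47.4% of promoters. The runs of Snhg1, Snhg3 and Snhg5 begin past the annotated start. These runs are matches of letters, not mapped starts, and the shares count the first start of each gene, so that of the second Gas5 start is a rough guide.

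The libraries held 2642858 to 3591212 reads in DekTg and 2525884 to 4101132 in DekCon, and the mitochondrial share was 3.25 to 3.66% in DekTg and 2.69 to 3.34% in DekCon. Dek was listed at 1862 to 2710 in DekTg and 395 to 632 in DekCon, but all 4 DekTg values of this gene were among 25 values of the table that are not whole reads. Slamf1 (CD150), Kit and Ly6a (Sca-1), which the sort used, and the stem cell genes Procr, Mecom and Hlf were present in all libraries, with a sum of 2164 to 2640 in DekTg and 1965 to 2671 in DekCon. Summed levels of 9 B and plasma cell genes were 4569 to 5399 in DekTg and 491 to 1268 in DekCon, with Igkc and Jchain past the test. Those of 9 erythroid genes were 495 to 615 in DekTg and 161 to 446 in DekCon, with 3 globin genes past the test. Genes of cells outside the gate (Cd48, Flt3, Cd3e, Cd4, Cd8a, Itgam and Ly6g) summed to 1148 to 1389 in DekTg and 436 to 1335 in DekCon. Neutrophil genes summed to 2181 to 16411 in DekTg and 3930 to 10121 in DekCon, and megakaryocyte genes to 2035 to 3422 in DekTg and 2690 to 9472 in DekCon, with none of these past the test. In each of these lists no gene was at 0 in all libraries, and the part of such cells in the values below was not tested. Replicate 2 of each group stood apart, at a root mean square distance of 0.44 (DekTg) and 0.43 (DekCon) on the log2 scale from the other 3 libraries of its group, against 0.27 to 0.33 for the other 6 libraries. Replicates 1 and 4 of a group were the closest pair (chi-square per gene of 1.6 in DekTg and 1.52 in DekCon, against 3.89 to 9.46 for other pairs within a group). Amplified reads are not independent, so this measure cannot tell separate samples from repeat libraries. They were kept separate as the labels give them, and averaging them left 0 of the 9 RNAs and 12 genes in all past the test.

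None of the 9 RNAs passed the test between DekTg and DekCon. All values below are normalized read counts, that is reads per gene divided by a size factor of the library. Differences are log2 fold changes of DekTg over DekCon on the log2(value + 1) scale, tested with limma over 37414 genes at an adjusted p of 0.05. Over all these genes 13 passed, which is 0.0347%, with 10 higher (0.0267%) and 3 lower (0.00802%) in DekTg. The groups did not overlap for 0 of the 9 RNAs, against 3.97% of all genes (2.09% with DekTg higher and 1.88% with DekTg lower). No member had an unadjusted limma p under 0.05, and edgeR and DESeq2 on the recovered reads called 0 of 9 as well. The point estimates lay below 0 for 7 of 9 and above 0 for 2, with a median of -0.13, against a median of 0.01 and 49.4% below 0 over all genes. This median was -0.22 without DekTg replicate 2, -0.06 without DekTg replicate 3, -0.08 without DekCon replicate 3, -0.04 with CPM scaling and -0.05 with quantile scaling. CPM scaling also moved the median of all genes to 0.07. Among 22884 genes with a value of at least 10 in at least 4 libraries, the median was -0.02 and 46.4% were above 0. With 4 libraries against 4, the smallest two-sided exact permutation p is 0.0286, and the members reached 0.143 to 0.743. In bulk RNA, fewer cells that hold an RNA and less of it per cell cannot be told apart.

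**Figure D1:**
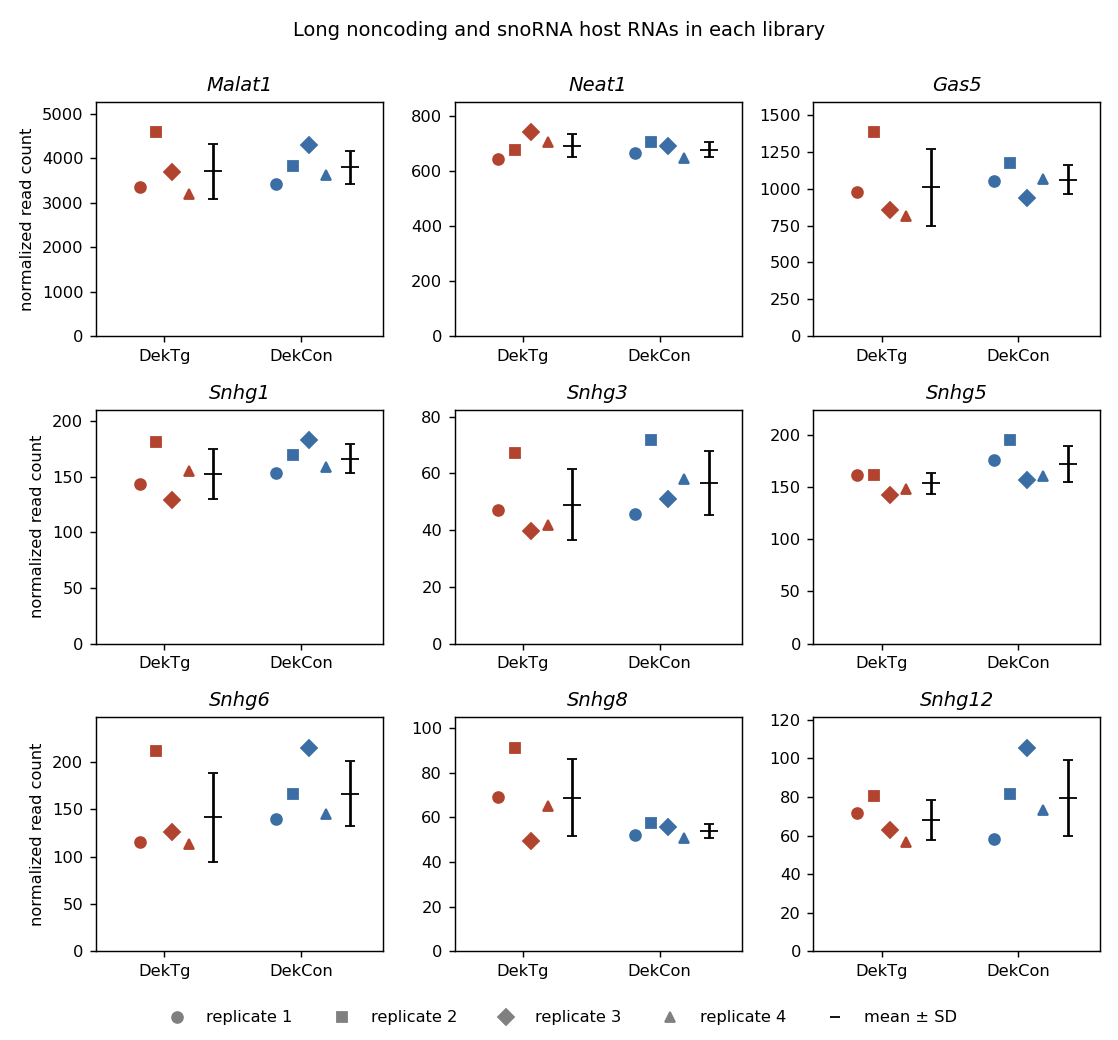
Normalized read counts of the 9 RNAs in each library (points), with DekTg left of DekCon and bars at the group mean with SD (n = 4 each). In every panel the points of the groups overlap, and for Malat1 the DekTg points span 3192 to 4585 around DekCon points of 3432 to 4301.

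Malat1 (ENSMUSG00000092341.3, chr19:5795690-5802672 on GRCm38, minus strand, annotated as a lincRNA) had the most normalized reads of the 9. DekTg replicates 1 to 4 had 3358, 4585, 3682 and 3192 normalized reads, and DekCon replicates 1 to 4 had 3432, 3828, 4301 and 3620. The DekTg libraries held both the highest and the lowest value, so they enclosed the DekCon libraries. The means were 3704 ± 621 in DekTg and 3795 ± 374 in DekCon (SD, n = 4 each). The log2 fold change was -0.04 (95% interval -0.34 to 0.25, SE 0.14, limma adjusted p = 0.964), which as a ratio runs from 0.789 to 1.19. Malat1 ranked between 22 and 48 of all genes in the libraries and took 0.121 ± 0.0165% of reads in DekTg and 0.117 ± 0.0150% in DekCon (SD, n = 4 each).

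On the other strand, the 453 bases annotated as Gm37376 lie wholly inside the Malat1 exon (chr19:5801941-5802393). This gene was listed at 1171 ± 112 in DekTg and 1226 ± 69.1 in DekCon (SD, n = 4 each), with a log2 fold change of -0.07 (limma adjusted p = 0.922). Whether counting used strand is not given in the sources used here, so reads of these genes cannot be told apart.

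Neat1 (ENSMUSG00000092274.3, chr19:5824708-5845478, minus strand, lincRNA) lies beside Malat1 on the same strand and was the steadiest of the 9. DekTg replicates 1 to 4 had 646, 677, 741 and 708 normalized reads, against 666, 706, 694 and 648 in DekCon replicates 1 to 4. The values interleaved, with a DekTg library at each end. Means were 693 ± 40.8 in DekTg and 678 ± 26.6 in DekCon (SD, n = 4 each), a log2 fold change of 0.03 (95% interval -0.20 to 0.26, SE 0.11, limma adjusted p = 0.969). It was 0.12 with CPM and 0.20 with quantile scaling. The table gives 1 value per gene, so the short and the long form of Neat1 were not separated here.

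The SD of Neat1 within groups was 0.07 on the log2 scale, close to the 0.06 that counting error alone gives at its depth. Of 1630 genes within 2-fold of its level, 97.2% had a larger SD within groups. Malat1 had a within-group SD of 0.19, near the median of 0.20 for 81 genes of like level. The ratio of Malat1 to Neat1 was 5.20, 6.77, 4.97 and 4.51 in DekTg replicates 1 to 4 and 5.16, 5.42, 6.20 and 5.59 in DekCon replicates 1 to 4, so this ratio was highest where Malat1 was highest and the groups overlapped.

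Gas5 (ENSMUSG00000053332.13, chr1:161034422-161038539, plus strand) is a host of C/D-box snoRNAs whose spliced RNA builds up when growth stops and, in human cells, can bind the glucocorticoid receptor. DekTg replicates 1 to 4 had 982, 1384, 855 and 818 normalized reads, and DekCon replicates 1 to 4 had 1056, 1179, 939 and 1069.7. DekTg replicate 2 was the highest of the 8 libraries and the other 3 DekTg libraries included the lowest 2. The means were 1009.5 ± 259 in DekTg and 1061 ± 98.0 in DekCon (SD, n = 4 each), with a log2 fold change of -0.10 (95% interval -0.42 to 0.22, SE 0.15, limma adjusted p = 0.916). Without DekTg replicate 2 the log2 fold change was -0.26, with an unadjusted limma p of 0.0471 and an adjusted p of 0.580.

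Snhg1 (ENSMUSG00000108414.1, chr19:8723475-8726443, plus strand) also carries C/D-box snoRNAs, which direct ribose methylation. Its DekTg replicates 1 to 4 had 143, 181, 129 and 155 normalized reads, and its DekCon replicates 1 to 4 had 153, 169, 183 and 158. The groups overlapped, with the lowest 2 values in DekTg. The means were 152 ± 22.2 in DekTg and 166 ± 13.1 in DekCon (SD, n = 4 each), a log2 fold change of -0.13 (95% interval -0.43 to 0.17, limma adjusted p = 0.862).

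Snhg3 (chr4:132348014-132353686, minus strand) is the host of Snora73a and Snora73b, snoRNAs needed to process ribosomal RNA rather than to modify it. DekTg replicates 1 to 4 had 47.0, 67.3, 39.8 and 42.0 normalized reads, against 45.6, 71.8, 50.9 and 57.9 in DekCon replicates 1 to 4. Replicate 2 was the highest library in both groups. Means were 49 ± 12.5 in DekTg and 56.5 ± 11.3 in DekCon (SD, n = 4 each), and the log2 fold change was -0.21 (95% interval -0.65 to 0.23, limma adjusted p = 0.852). Of the exon bases of Snhg3, 71.5% are shared with Gm17300 on the other strand and 13.7% with Rcc1 on the same strand, so its level is uncertain.

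Snhg12 (chr4:132308623-132311024, plus strand), a host of Snora16a, Snora44, Snora61 and Snord99, lies close to Snhg3 on chromosome 4. Its DekTg replicates 1 to 4 had 71.7, 80.5, 63.1 and 56.7 normalized reads, and its DekCon replicates 1 to 4 had 58.3, 81.3, 106 and 73.3. DekCon replicate 3 was the highest library and DekTg replicate 4 the lowest, with the other 6 interleaved. The log2 fold change was -0.21 (95% interval -0.61 to 0.20, limma adjusted p = 0.843), from means of 68.0 ± 10.4 in DekTg and 79.6 ± 19.7 in DekCon (SD, n = 4 each).

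Snhg5 (chr9:88521050-88522929, minus strand) is the host of Snord50a and Snord50b. DekTg replicates 1 to 4 had 162, 162, 143 and 148 normalized reads, and DekCon replicates 1 to 4 had 176, 195, 157 and 161. The lowest 2 values were in DekTg and the highest 2 in DekCon, but the DekTg libraries at 162 lay above DekCon replicates 3 and 4. Means were 154 ± 9.78 in DekTg and 172 ± 17.3 in DekCon (SD, n = 4 each), a log2 fold change of -0.16 (95% interval -0.44 to 0.12, limma adjusted p = 0.822). Its within-group SD of 0.12 was, after Neat1, the smallest of the 9, and 90.6% of 6851 genes of like level had a larger value.

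Snhg6 (chr1:9941959-9944118, minus strand), the host of Snord87, varied most within groups. Normalized reads were 115, 211, 126 and 113 in DekTg replicates 1 to 4 and 139, 166, 215 and 145 in DekCon replicates 1 to 4. DekTg replicate 2 lay among the DekCon libraries, and the other 3 DekTg libraries were below all 4 of them. The means were 142 ± 46.9 in DekTg and 166 ± 34.3 in DekCon (SD, n = 4 each), with a log2 fold change of -0.26 (95% interval -0.67 to 0.15, limma adjusted p = 0.812). Without DekTg replicate 2 it was -0.47, with an unadjusted limma p of 0.00966 and an adjusted p of 0.474. The within-group SD of 0.36 was exceeded by 12.2% of 6991 genes of like level. On the other strand, Mcmdc2 shares 11.1% of the exon bases of Snhg6.

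Snhg8 (chr3:123507552-123508404, minus strand), the host of the H/ACA-box snoRNA Snora24, was the only host with a point estimate above 0. Its DekTg replicates 1 to 4 had 69.2, 91.3, 49.5 and 65.1 normalized reads, against 52.0, 57.4, 55.6 and 50.9 in DekCon replicates 1 to 4. In DekTg 3 of 4 libraries were above all DekCon libraries and replicate 3 was below all of them. The means were 68.8 ± 17.2 in DekTg and 54.0 ± 3.04 in DekCon (SD, n = 4 each), and the log2 fold change was 0.31 (95% interval -0.09 to 0.71, limma adjusted p = 0.772). Without DekTg replicate 3 the log2 fold change was 0.46 (unadjusted p of 0.0288 in limma's fit across all genes, adjusted p of 0.830). Leaving out DekTg replicate 2 gave 0.17.

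**Figure D2:**
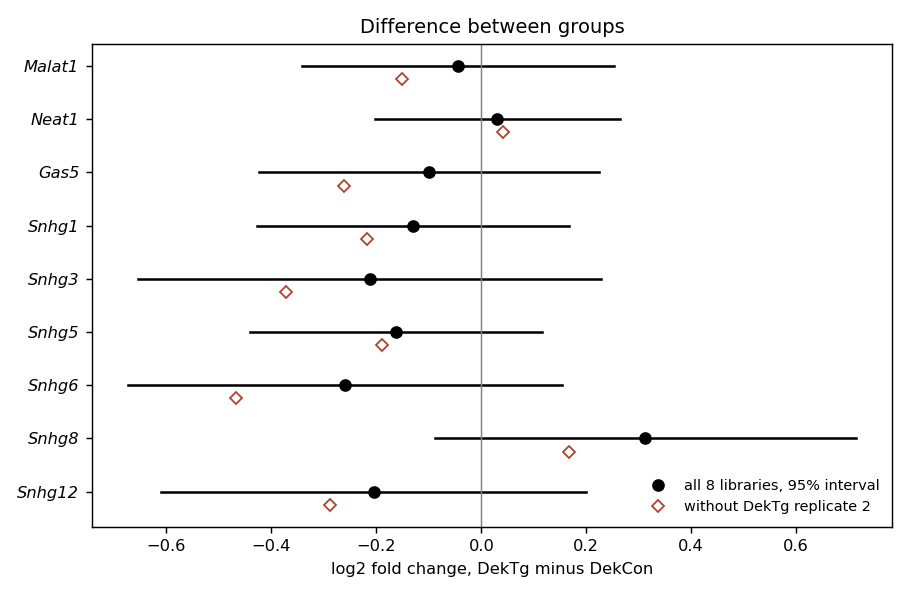
Log2 fold change of DekTg over DekCon for each RNA, over all libraries (filled points, with 95% intervals as lines) and without DekTg replicate 2 (open diamonds). All 9 intervals over all libraries include 0, from -0.67 at the low end for Snhg6 to 0.71 at the high end for Snhg8.

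Several of these RNAs were highest in the same libraries. DekTg replicate 2 was the highest library of its group for 8 of the 9 RNAs, all but Neat1. For Snhg5 it was nearly tied with DekTg replicate 1 (162.2 against 161.5 normalized reads). This library stood apart over all genes, and the share of all genes highest in it was not counted. The count is thus not a trait particular to these RNAs. In DekCon, replicate 2 was the highest for 5 (Neat1, Gas5, Snhg3, Snhg5 and Snhg8) and replicate 3 for the other 4 (Malat1, Snhg1, Snhg6 and Snhg12). Set against the mean of all 8 libraries on the log2 scale, DekTg replicate 2 was at 0.59 for Snhg8, 0.50 for Snhg6, 0.44 for Gas5 and 0.30 for Malat1, but at -0.02 for Neat1. DekCon replicate 3 was at 0.54 for Snhg12 and 0.52 for Snhg6, and at -0.12 for Gas5. Most gene lists had another high library. DekCon replicate 2 was the highest for the snoRNA-binding proteins (mean of 13 genes at 0.59, against -0.13 in DekTg replicate 2), the protein-coding hosts (0.32), the paraspeckle proteins (0.28) and 5 other lists. Noncoding hosts outside the 9 were the exception, highest in DekTg replicate 1 at 0.08. The large sum of values in DekCon replicate 2 bears on these list means as well. These deviations describe single libraries and were not tested.

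**Figure D3:**
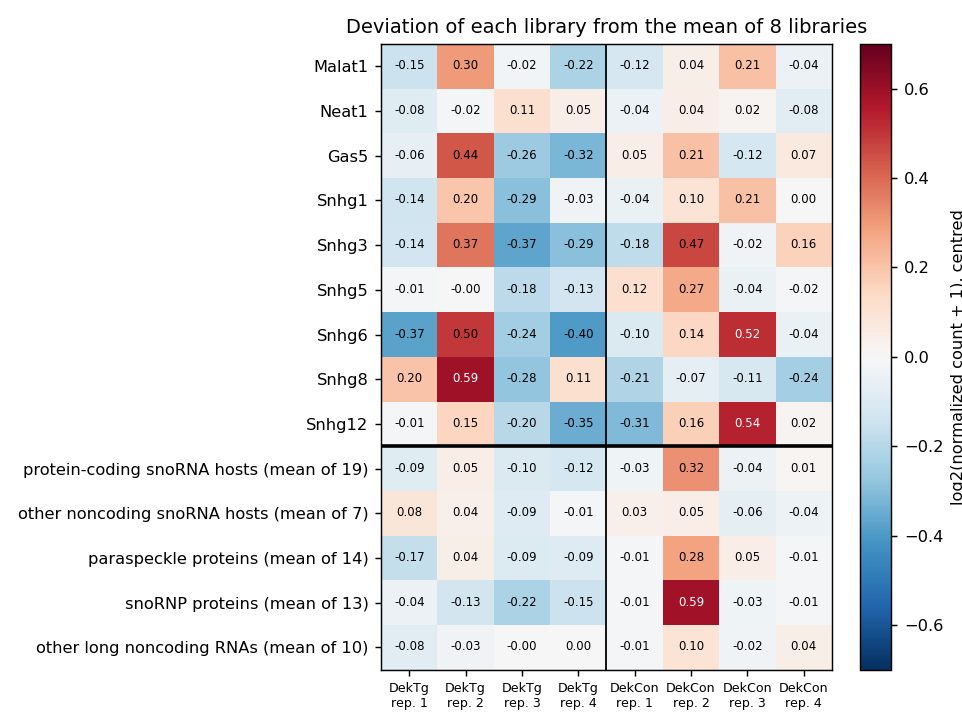
Deviation of each library from the mean of 8 libraries, on the log2(normalized count + 1) scale, for the 9 RNAs (upper rows) and for means of gene lists (lower rows), with DekTg libraries on the left. DekTg replicate 2 is high for Gas5 (0.44) and Snhg6 (0.50), whereas DekCon replicate 2 is high for the means of snoRNP proteins (0.59), protein-coding hosts (0.32) and paraspeckle proteins (0.28).

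Over the 36 pairs of the 9 RNAs, the profiles most alike across the 8 libraries were Malat1 with Snhg1 (root mean square difference of 0.13 on the centred log2 scale) and Gas5 with Snhg3 (0.14). Those least alike were Snhg6 and Snhg8 (0.37). Among 11808 genes with a mean of at least 50, the profiles nearest to Malat1 were those of Ppp4r2, Mib1 and Clasp2, each at 0.06. Nearest to Neat1 were Xpr1, Chid1 and Frmd4b, each at 0.04. Nearest to Gas5 were Acad11 at 0.06, Uqcrh at 0.06 and Rpl23, a ribosomal protein gene, at 0.07. A low difference is easier to reach for a gene that varies little, such as Neat1.

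Levels can be compared between genes only per length, and the order depended on the length used. The ends of Malat1 and of the long form of Neat1 are not made by polyadenylation. How well each RNA was captured was not tested, so the order is one of captured reads. Per kilobase of all annotated exons, Malat1 had the highest level, with 530.5 ± 89.0 normalized reads in DekTg and 543 ± 53.5 in DekCon, followed by Gas5 with 268 ± 68.9 in DekTg and 282 ± 26.1 in DekCon (SD, n = 4 each). Snhg6 came next with 124 ± 40.9 in DekTg and 145 ± 29.9 in DekCon. Snhg5 at 88.8 ± 5.65 in DekTg and 99.6 ± 10 in DekCon, and Snhg8 at 80.6 ± 20.2 in DekTg and 63.3 ± 3.56 in DekCon, overlapped in DekTg but not in DekCon. The mean of Snhg8 was above that of Snhg1 in both groups, and the ranges of mean ± SD overlapped in DekCon but not in DekTg. Both RNAs come from the same libraries, and their order within each library was not tested. Snhg1 and Snhg3 did not differ beyond their spread, at 51.3 ± 7.47 and 49.7 ± 12.7 in DekTg and 55.9 ± 4.41 and 57.3 ± 11.5 in DekCon. Neat1 had 33.4 ± 1.96 in DekTg and 32.7 ± 1.28 in DekCon, and Snhg12 had 28.3 ± 4.31 in DekTg and 33.2 ± 8.22 in DekCon, within their spread of each other. Neat1 is the longest of the 9 at 20771 exon bases, so it was 3rd in normalized reads and 8th or 9th per kilobase.

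Per kilobase of the longest spliced transcript the order changed, since the exon union of a host covers retained introns: it has 3760 bases in Gas5, whose longest spliced transcript has 665. Gas5 was then first, with 1518 ± 390 in DekTg and 1596 ± 147 in DekCon (SD, n = 4 each), and Malat1 second with its value as before. Snhg1 moved to the third place with 215 ± 31.3 in DekTg and 234 ± 18.4 in DekCon. Neat1 was last in both groups, over the 20771 bases of its long form. Its short polyadenylated form has 3004 bases, so its place depends on which form the reads came from. A level over the short form was not calculated.

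**Figure D4:**
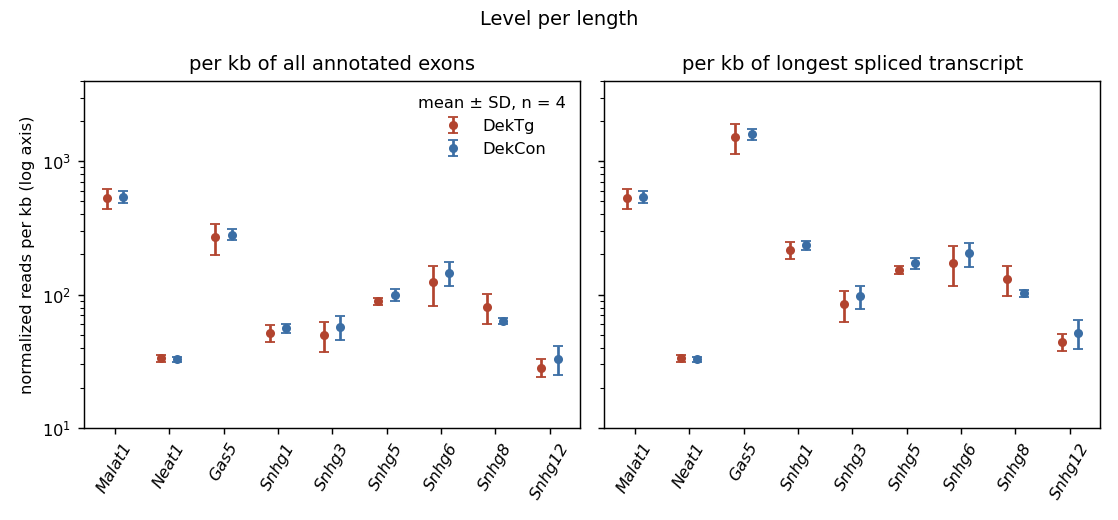
Normalized read count per kilobase (log axis) of the 9 RNAs, with DekTg left of DekCon (points at the mean, bars for the SD, n = 4 each), for the union of annotated exons and for the longest spliced transcript. Malat1 is highest over the exon union (530.5 in DekTg, 543 in DekCon) and Gas5 over the longest spliced transcript (1518 in DekTg, 1596 in DekCon).

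Within the spans of the 7 hosts the annotation holds 29 small RNA entries, of which 26 matched a name in the table. Snord80 and Snora16a have 2 overlapping entries each, which were counted separately. At 0 in all 8 libraries were 21 of these 26, and none had more than 2 reads in any library. The lowest host value was 39.8 normalized reads, for Snhg3. The listed snoRNA counts were therefore near or at 0 in these libraries, which per the labels were reverse-transcribed from mRNA. Many of these genes lie wholly inside annotated exons of their host on the same strand, such as Snord22 in Snhg1 and Snora24 in Snhg8. How reads shared by such genes were counted is not given in the sources used here, so a count of 0 cannot show that a snoRNA was absent. Host RNA levels are thus given here without snoRNA levels.

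Genes that work with these RNAs were described from lists, and 0 genes of any list passed the test, against 0.0347% of all genes. Of 14 tested noncoding snoRNA hosts outside the 9, 5 had a log2 fold change above 0 and 9 below (median -0.14, but -0.09 without DekTg replicate 2, -0.03 without DekCon replicate 2, -0.06 with CPM and -0.08 with quantile scaling). Zfas1, a host of C/D-box snoRNAs, had 78.1 ± 18.6 normalized reads in DekTg and 57.2 ± 5.98 in DekCon (log2 fold change 0.42, limma adjusted p = 0.711), and Snhg16 had 36.1 ± 6.58 in DekTg and 49.9 ± 7.61 in DekCon (-0.46, adjusted p = 0.711; SD, n = 4 each). Of 19 protein-coding snoRNA hosts, 3 were above 0 and 16 below (median -0.10, but -0.02 without DekCon replicate 2, -0.01 with CPM and 0.05 with quantile scaling). The translation factor gene Eif4a1 was at -0.47 (adjusted p = 0.707) and Nop56 at -0.35 (adjusted p = 0.711).

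The 16 genes for snoRNA-binding proteins and their assembly factors had the lowest median of the lists, -0.29, with 16 of 16 below 0. An unadjusted limma p under 0.05 was reached by 6 of them, against 6.93% of all genes, but by 1 without DekCon replicate 2, 1 without DekTg replicate 3, 1 without the mean-variance trend and 2 after CPM or quantile scaling. Nop56, a core protein of C/D-box particles, had 793 ± 19.4 normalized reads in DekTg and 1023 ± 187 in DekCon, and Nhp2, of H/ACA-box particles, had 211 ± 16.9 in DekTg and 282 ± 58.1 in DekCon (log2 fold change -0.40, limma adjusted p = 0.711; SD, n = 4 each). The median was -0.18 without DekCon replicate 2, the library in which these genes were highest, and -0.17 after quantile scaling. The 7 hosts of the set had a median of -0.16, with 6 of 7 estimates below 0; it was -0.26 without DekTg replicate 2, -0.10 without DekCon replicate 2, -0.08 with CPM scaling and -0.07 with quantile scaling (5 of 7 below 0).

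Paraspeckle proteins, which assemble on Neat1, had 2 of 16 genes above 0 and 14 below (median -0.15, but -0.05 without DekCon replicate 2, -0.06 with CPM and -0.02 with quantile scaling). Hnrnph3 was at -0.26 (limma adjusted p = 0.717) and Ewsr1 at -0.39 (adjusted p = 0.723). Of 10 genes for nuclear speckle proteins, 1 was above 0 and 9 below (median -0.18, but -0.09 with CPM and -0.04 with quantile scaling). The splicing factor gene Srsf2 was at -0.50 (adjusted p = 0.711). Without replicate 2 of both groups, a setting chosen after seeing the data, Srsf2 was at -0.56 (limma adjusted p = 0.0170). Srrm2, which builds the speckle core, was at -0.21 (adjusted p = 0.743).

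The 11 genes of RNase P and tRNase Z, the enzymes that cut the Malat1 end printed above, had 1 above 0 and 10 below (median -0.15, but -0.09 without DekCon replicate 2 and -0.07 with CPM scaling). Elac2, the gene of tRNase Z, was at -0.28 (limma adjusted p = 0.773) and Pop7, an RNase P subunit, at -0.22 (adjusted p = 0.816). Nonsense-mediated decay genes had 3 of 15 above 0 and 12 below (median -0.16, but -0.08 with CPM and -0.10 with quantile scaling), with Casc3 of the exon junction complex at -0.43 (adjusted p = 0.711).

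Of 6 genes for proteins that bind TOP or related mRNAs, 1 was above 0 and 5 below (median -0.15, but -0.23 without DekTg replicate 2, -0.06 with CPM and -0.03 with quantile scaling). Larp1, which binds the cap and the TOP run, had 195 ± 9.47 normalized reads in DekTg and 284 ± 46.2 in DekCon (SD, n = 4 each). The groups of Larp1 did not overlap, but it did not pass the test (log2 fold change -0.52, limma adjusted p = 0.639). Pabpc1, the cytoplasmic poly(A)-binding protein, was at -0.33 (adjusted p = 0.711).

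Other long noncoding RNAs had a median nearer to that of all genes, -0.03, with 6 of 16 tested above 0 and 10 below; it was 0.05 with CPM and 0.01 with quantile scaling. Tug1 had 1756 ± 195 normalized reads in DekTg and 2249 ± 341 in DekCon (log2 fold change -0.35, limma adjusted p = 0.711; SD, n = 4 each), and Dleu2 was at -0.13 (adjusted p = 0.842). Of 7 small structural RNAs, 3 were in the table and 2 were tested: Rpph1, the RNA of RNase P, had 4.57 ± 3.22 in DekTg and 4.6 ± 4.66 in DekCon, and Terc, the telomerase RNA, had 2.17 ± 1.84 in DekTg and 2.88 ± 3.69 in DekCon (SD, n = 4 each). Both were near the detection limit.

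**Figure D5:**
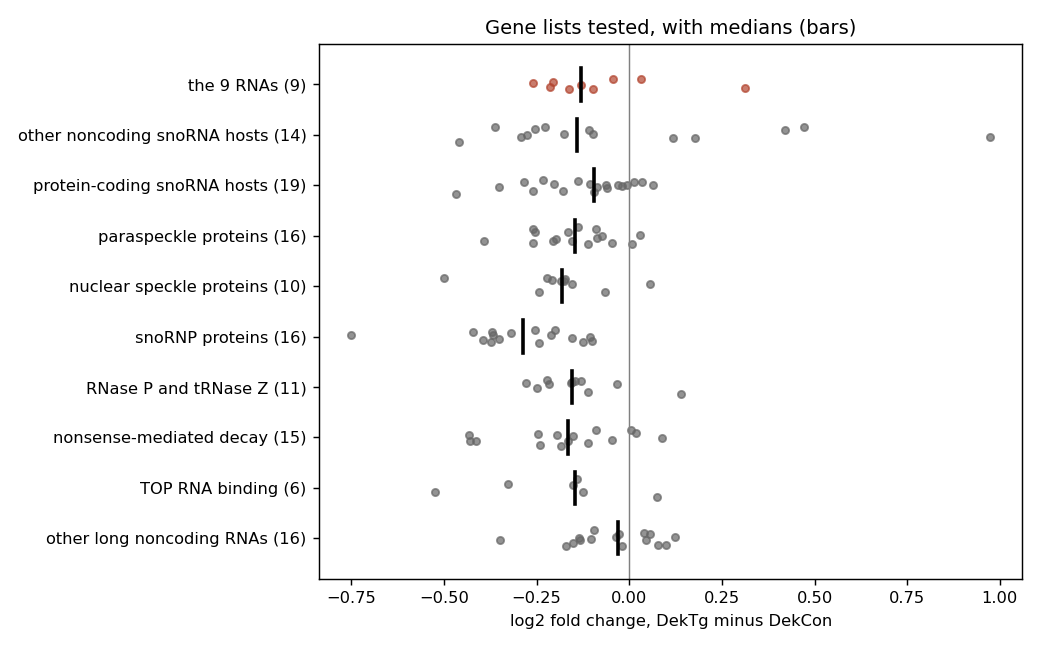
Log2 fold change of DekTg over DekCon for the tested genes of each list (points, with the number tested in brackets) and the list's median (bars), with the 9 RNAs in the top row. The median is -0.13 for the 9 RNAs, -0.29 for snoRNP proteins and -0.03 for other long noncoding RNAs, and no point passed the test.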

How the data were processed

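RNA-seq libraries of 4 DekTg and 4 DekCon samples were analysed. The submitters' processing notes list the mm10 build with DESeq2, HTSeq, Cufflinks 2.1.1 and Bowtie 0.12.9, in no stated order; which annotation was counted, and whether by strand, is not given in those notes. Per the labels, RNA was amplified by Geo-seq and tagmented. The deposited signal, which the authors' table name calls FPKM, was read as gene counts divided by 1 size factor per library: 99.99% of 417792 values were whole multiples of a library's step (tolerance 0.001 reads), and none of the 25 others, in 6 genes, belonged to the 9 RNAs. The test had been planned for FPKM and was kept, since it suits any normalized value on a log scale; values are not scaled for gene length. Reads of amplified cDNA without molecular identifiers are not independent molecules, so counting error covers only part of the error.

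Genes with a value of at least 1 in at least 4 of 8 libraries were tested on log2(value + 1) with limma 3.58.1 (R 4.3.3; mean-variance trend, no covariates, two-sided, Benjamini-Hochberg over 37414 genes, threshold 0.05); all 9 RNAs passed the filter. This scale understates the change of low genes. The code was tested on simulated reads. The test was repeated with other scalings, filters, pseudocounts and options of limma, with a block for the replicate number, with edgeR 4.0.16 and DESeq2 1.42.0 on the recovered reads, and without single libraries. The 9 RNAs and the lists were chosen with earlier results of these data known. All 9 are named; of each list, the 2 tested genes of smallest p are named, except where a gene is not reported here. GENCODE M21 (GRCm38) gave the positions of genes. Separate mice per library are not stated in the labels, so p-values reflect only how these libraries vary, and part of that may be technical.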

Additional observations from a re-analysis of the deposited data

Results flagged for a closer look

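Snhg6 in DekTg replicate 2 was far from the rest of its group, at 211 normalized reads against 115, 126 and 113 in DekTg replicates 1, 3 and 4. The gap to the nearest library was 0.870 of the range of the group, above the critical value of Dixon's test for 4 samples. It was the only such library among 18 groups of values (9 RNAs in 2 genotypes), and chance gives about 1 in 20. DekTg replicate 2 also stood apart over all genes and was the highest of its group for 8 of the 9 RNAs; its part in the Snhg6 value was not tested.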

How the results depend on the processing

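The number of the 9 RNAs past the threshold was 0 under every alternative run, with a smallest limma, edgeR or DESeq2 adjusted p of 0.474 over 207 refitted values (Snhg6 without DekTg replicate 2). Leaving out 1 library at a time gave log2 fold changes of -0.15 to 0.0227 for Malat1, -0.0025 to 0.0635 for Neat1, -0.26 to -0.01 for Gas5, -0.22 to -0.06 for Snhg1, -0.37 to -0.09 for Snhg3, -0.20 to -0.10 for Snhg5, -0.47 to -0.13 for Snhg6, 0.17 to 0.46 for Snhg8 and -0.34 to -0.06 for Snhg12. The direction turned for 3 RNAs: Malat1 was at 0.0416 with CPM scaling, 0.0774 with quantile scaling, 0.0227 without DekTg replicate 4 and 0.0177 without DekCon replicate 3; Gas5 was at 0.0469 with quantile scaling; and Neat1 was at -0.0025 without DekTg replicate 3. Neat1 was at 0.12 with CPM and 0.20 with quantile scaling. CPM scaling moved the median of all genes to 0.07, with 60.3% above 0 against 50.6%.

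Over all genes the 13 calls became 4 without the mean-variance trend, 8 without the 6 genes that hold values other than whole reads, 13 to 22 with 1 library left out (22 without DekTg replicate 2) and 39 without replicate 2 of both groups, a setting chosen after seeing the data. In that last setting 1 gene of the lists passed, the nuclear speckle gene Srsf2, lower in DekTg (log2 fold change -0.56, limma adjusted p = 0.0170). Of the 240 counts made for the lists under the alternatives, this was the 1 that moved. With the replicate number as a block 0 of the 9 RNAs and 15 genes in all passed; same-numbered libraries had correlations of deviations of 0.04, 0.01, 0.04 and 0.15 over 11808 genes, so the numbers were not taken as pairs. With edgeR 9 genes and with DESeq2 16 genes passed in all. With 39.8 to 106 normalized reads, Snhg3, Snhg8 and Snhg12 have counting SDs of 0.20, 0.19 and 0.17 on the log2 scale. Their SDs within groups were larger, at 0.31, 0.26 and 0.29. Small changes of these RNAs were thus not detectable with these libraries, and counting error is only part of the spread.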

Other observations

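Some of these RNAs share a start region with a neighbour on the other strand. The start of Zbtb37, a zinc finger gene, lies 427 bases from that of Gas5, and Zbtb37 had 386, 377, 416 and 387 normalized reads in DekTg replicates 1 to 4 and 276, 358, 322 and 370 in DekCon replicates 1 to 4. All 4 DekTg libraries were above all 4 DekCon libraries, but the log2 fold change of 0.25 did not pass the test (limma adjusted p = 0.727), while that of Gas5 was -0.10. The difference between these neighbours was not tested. The start of Slc3a2, an amino acid transporter subunit, lies 106 bases from that of Snhg1, and it had 431 ± 92.6 in DekTg and 473 ± 81.1 in DekCon (SD, n = 4 each; log2 fold change -0.14, limma adjusted p = 0.867). Frmd8os, whose start lies 145 bases from that of Neat1, was at 0 in all libraries except DekCon replicate 4, which had 2 reads.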
